A study of Danio rerio with 6 samples.

Results

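Fibrillar collagens are the proteins that assemble into the banded fibrils of connective tissue. The genes described here encode the fibril-forming collagen chains that are also used outside cartilage: *col1a1a*, *col1a1b* and *col1a2* for type I collagen, *col5a1*, *col5a2a* and *col5a2b* for type V, *col11a1a* for type XI and *col27a1a* for type XXVII. They were chosen by name, as the rows of the deposited tables that carry exactly one of these 8 gene names. Of the 8 names 7 were found, among 29978 genes listed, and all 7 passed the filter on low counts that left 20805 genes for testing. The name *col5a2a* was not found in that spelling. A gene listed as *COL5A2 (2 of 2)* (ENSDARG00000031678) is *col5a2a* through a synonym in the RefSeq annotation, and its values are given beside the others without its being counted among the 7.

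Hearts were dissected from zebrafish embryos and pooled, and each of 3 pools at 56 hpf (hours post fertilization) and 3 pools at 48 hpf gave 1 RNA-seq library. The labels give the AB line and the tissue heart at both stages, whereas the paper's methods give a *myl7:EGFP* transgenic background, in which the *myl7* promoter drives a green fluorescent protein in heart muscle. The 2 stages were set against each other because formation of the atrioventricular valve begins in this interval. Different embryos were used at each stage, and nothing in the labels ties pools of the same number to each other beyond the number.

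In a collagen fibril, 3 chains wind into a triple helix, and the helices then pack side by side. Type I collagen is the bulk fibril of skin, tendon, bone and heart connective tissue, and zebrafish carry a pair of copies of its alpha-1 gene. Types V and XI occur in small amounts and start and limit fibril growth. In mouse embryos *Col5a1* and *Col11a1* are known from the developing heart valves. In zebrafish *col11a1a* and *col27a1a* are best known from cartilage and notochord, where *col27a1a* is needed for a straight, mineralized spine, and type I collagen is made by epidermal cells as well as by fibroblasts.

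Between 14369087 and 26942838 reads were counted on genes per library. Values below are normalized read counts, that is, the reads of a gene divided by the size factor of its library; they follow gene length, so levels are compared between stages and not between genes. The log2 fold change (56 over 48 hpf) and its standard error come from limma on log2(normalized count + 1), with the replicate number as a block, and p-values were adjusted over all genes tested by the Benjamini-Hochberg method. Over all genes the median log2 fold change was -0.01. By this test 225 genes differed, 181 of them higher at 56 hpf and 44 lower. In a whole-heart pool, fewer cells of a type and less RNA per cell cannot be told apart. The labels do not say whether the pools came from separate clutches, so the p-values measure only the spread among these pools. With the block, that is the spread left after differences between replicate numbers are taken out.

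Of the 7 genes, *col5a2b* alone was called, and it was higher at 56 hpf; the background was 0.87% of all genes called higher. All 7 log2 fold changes were positive, with a median of 0.80, where 49.2% of all genes tested had a positive one. Normalized counts of 2 of the 7, *col5a2b* and *col27a1a*, did not overlap between stages, beside 13.1% of all genes tested that were higher in every 56 hpf pool. In these 2 genes alone the 56 hpf pool exceeded the 48 hpf pool for each of the 3 replicate numbers, beside 20.7% of all genes. Before adjustment, 3 of the 7 had a p under 0.05 (*col5a2b*, *col27a1a* and *col11a1a*), and 11.1% of all genes did so in the same direction.

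**Figure D1:**
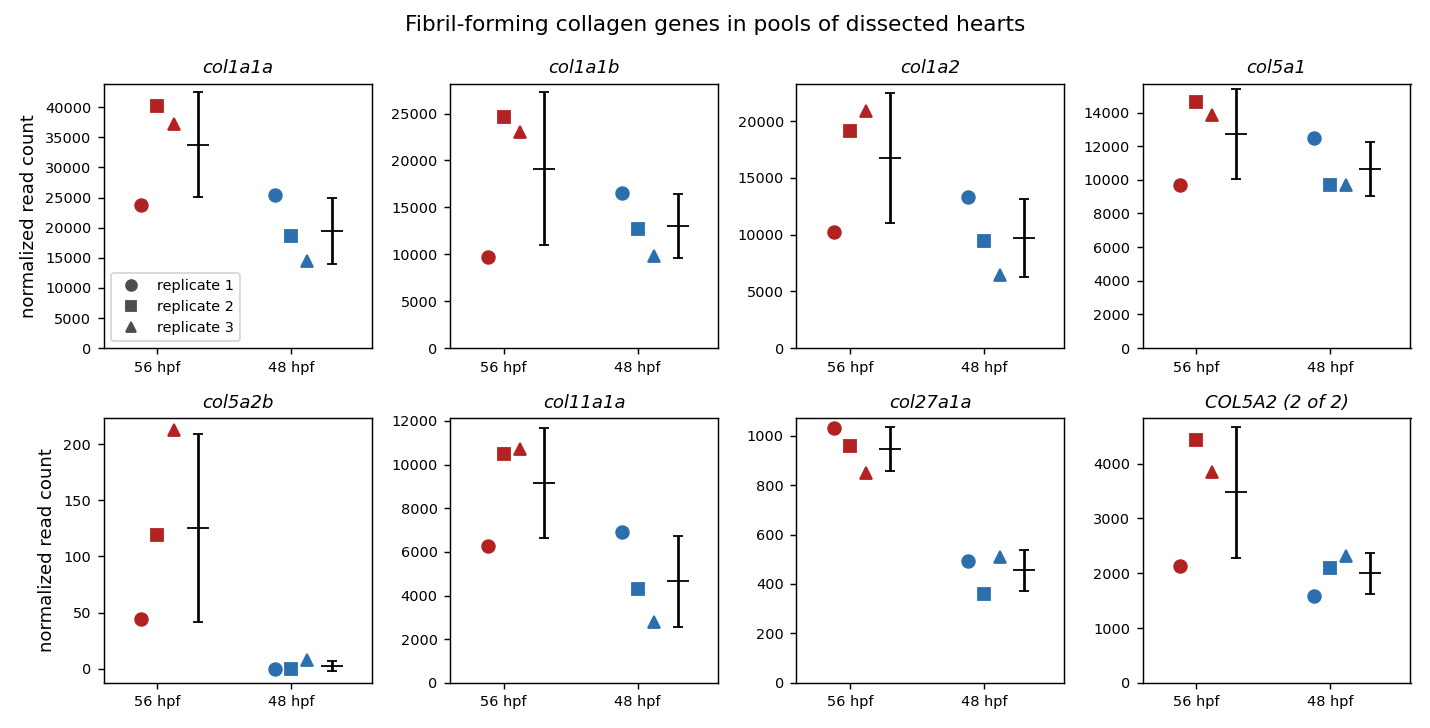
Normalized read count (linear axis) of the 7 genes and of *COL5A2 (2 of 2)* in each pool, with 56 hpf on the left of each panel, 48 hpf on the right, symbols for the replicate numbers, and the mean and SD of 3 pools in black. *col5a2b* and *col27a1a* have no overlap between stages, and in the 3 type I genes, *col5a1* and *col11a1a* replicate 1 is the lowest pool at 56 hpf and the highest at 48 hpf.

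The type I genes held the most reads of the group. *col1a1a* (ENSDARG00000012405), which encodes an alpha-1 chain, had 23835, 40286 and 37160 normalized counts in the 56 hpf pools of replicates 1, 2 and 3, against 25367, 18562 and 14468 in the 48 hpf pools. The 56 hpf pools of replicates 2 and 3 lay above every 48 hpf pool, and that of replicate 1 lay within the 48 hpf range. The mean was 33761 ± 8736 at 56 hpf and 19465 ± 5506 at 48 hpf (SD, n = 3 each). The fitted difference was 1.74-fold and did not pass the test (log2 fold change 0.80, SE 0.37, limma adjusted p = 0.312).

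The other alpha-1 copy, *col1a1b* (ENSDARG00000035809), had 9724, 24586 and 23070 normalized counts at 56 hpf, against 16585, 12669 and 9786 at 48 hpf. Its 56 hpf pool of replicate 1 was the lowest of all 6 pools, while the other 56 hpf pools were the highest. The log2 fold change was 0.47 (SE 0.42, limma adjusted p = 0.583).

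*col1a2* (ENSDARG00000020007), which encodes the alpha-2 chain that joins the alpha-1 chains in the type I helix, had 10245, 19186 and 20914 normalized counts at 56 hpf, against 13303, 9451 and 6417 at 48 hpf. The stages overlapped again through replicate 1, and the log2 fold change of 0.78 (SE 0.40, limma adjusted p = 0.353) did not pass the test.

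Among the genes of the fibril-starting collagens, *col5a1* (ENSDARG00000012593) encodes the alpha-1 chain of type V. It had 9693, 14646 and 13866 normalized counts at 56 hpf, against 12467, 9699 and 9687 at 48 hpf. Its difference was the smallest of the 7 genes in the fit, with a log2 fold change of 0.25 (SE 0.28, limma adjusted p = 0.677) and no call in any of 20 alternative settings.

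The alpha-2 chain of type V comes from the *col5a2* copies, and *col5a2b* (ENSDARG00000024847) was close to undetected at 48 hpf. Its reads numbered 44, 121 and 255 in the 56 hpf pools, against 0, 0 and 6 reads in the 48 hpf pools, or 44.7, 119 and 212 normalized counts against 0, 0 and 7.62. Every 56 hpf pool exceeded every 48 hpf pool, with the lowest at 56 hpf 5.86 times the highest at 48 hpf. The gene passed the filter only through its reads at 56 hpf.

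With the floor of detection set at 3 reads per library, *col5a2b* was at least 11.2-fold higher in the 56 hpf pool of replicate 1 than in the 48 hpf pool of the same number, and at least 56.0-fold higher for replicate 2. For replicate 3, where reads were present at both stages, the ratio was 27.9. The mean was 125 ± 83.9 at 56 hpf and 2.54 ± 4.40 at 48 hpf (SD, n = 3 each), and the fitted log2 fold change was 5.68 (SE 0.65, limma adjusted p = 0.0195); its size depends on the pseudocount, since 2 pools held no read. The call was kept in 15 of the 19 alternatives that tested the gene, with adjusted p between 2.47e-11 and 0.113. It was lost without replicate 2 (adjusted p = 0.106), without the 48 hpf pool of replicate 2 (0.0690), without the 56 hpf pool of replicate 2 (0.109) and without the 56 hpf pool of replicate 3 (0.113). Fits that left out a single pool, here and below, also had no replicate block.

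The other copy, *COL5A2 (2 of 2)*, was present at both stages. It had 2131, 4432 and 3854 normalized counts at 56 hpf, against 1584, 2090 and 2322 at 48 hpf, so that only the 56 hpf pool of replicate 1 fell within the 48 hpf range. The log2 fold change was 0.75 (SE 0.21, limma adjusted p = 0.133). Without replicate 1 it was 0.91 (adjusted p = 0.0339), and without the 56 hpf pool of replicate 1 it was 1.07 (adjusted p = 0.0455). Of the reads of both *col5a2* copies, *col5a2b* took 2.05% to 5.22% in the 56 hpf pools and 0.327% in the 48 hpf pool of replicate 3, where alone it had reads at that stage. By the paper's methods, reads that fit both copies equally well were not counted, so the level of each copy is uncertain to that extent.

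*col11a1a* (ENSDARG00000026165) encodes the alpha-1 chain of type XI, which outside cartilage can join type V chains. It had 6255, 10483 and 10718 normalized counts at 56 hpf, against 6900, 4290 and 2768 at 48 hpf. Replicates 2 and 3 were well apart between stages, and the pools of replicate 1 lay between them in the opposite order. The mean was 9152 ± 2511 at 56 hpf and 4653 ± 2089 at 48 hpf (SD, n = 3 each), with a log2 fold change of 1.03 (SE 0.39, limma adjusted p = 0.230). It was called in 2 of 20 alternatives, without replicate 1 (1.62, adjusted p = 0.0133) and without the 48 hpf pool of replicate 1 (1.37, adjusted p = 0.0361).

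*col27a1a* (ENSDARG00000034373), a fibrillar chain of type XXVII, did not share the pattern of replicate 1. Its normalized counts were 1029, 959 and 850 at 56 hpf, against 495, 360 and 509 at 48 hpf. No pools overlapped, and the pools of each stage lay within a narrow band, at 946 ± 90.3 at 56 hpf and 455 ± 82.2 at 48 hpf (SD, n = 3 each). The log2 fold change of 1.07 (SE 0.21) had an unadjusted p of 0.00163 and a limma adjusted p of 0.0749 over all genes, short of the threshold.

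Whether *col27a1a* was called depended on the test: it was in 7 of 20 alternatives, with adjusted p between 0.00351 and 0.582. Without the block it was called by limma (adjusted p = 0.0373), which made 2 of the 7 genes called beside 2.09% of all genes. With the block it was also called by edgeR's likelihood ratio test (adjusted p = 0.00351), again 2 of 7 beside 5.79% of all genes, and by DESeq2 (0.00842), but not by edgeR's quasi-likelihood test (0.0863). The other calls were without replicate 1 (0.0401), without replicate 3 (0.0332), without the 48 hpf pool of replicate 1 (0.0279) and without that of replicate 3 (0.0410).

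**Figure D2:**
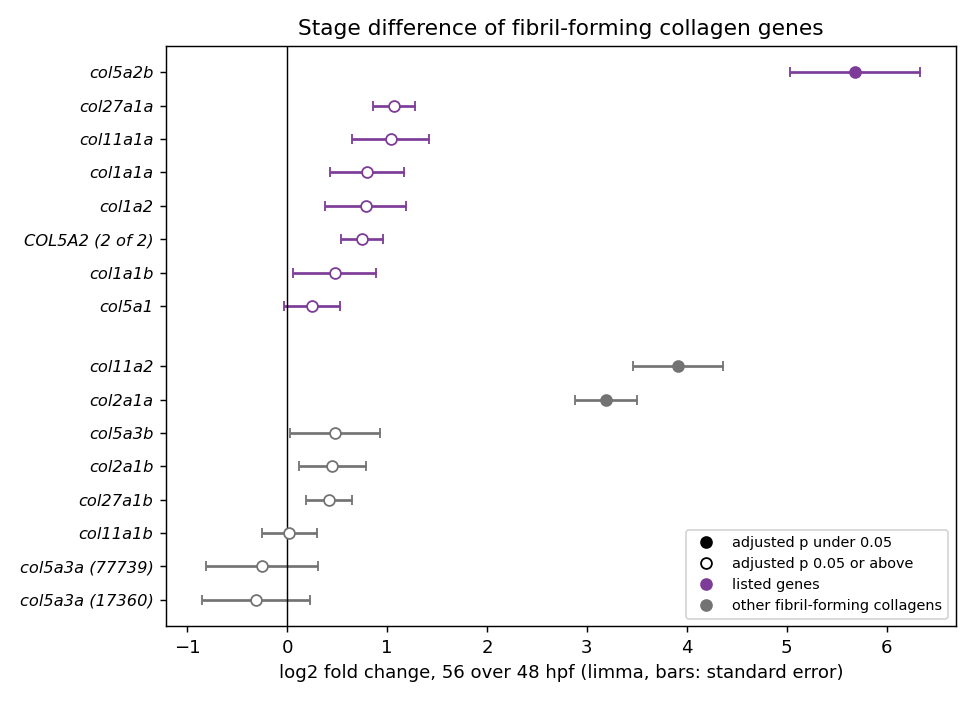
Log2 fold change (56 over 48 hpf) with its standard error from limma, for the listed genes and *COL5A2 (2 of 2)* in purple and other fibril-forming collagen genes in grey; filled points passed the threshold and open points did not, and the 2 rows of *col5a3a* carry the last digits of their identifiers. All purple points lie above 0 and only *col5a2b*, at 5.68, is filled; in grey, *col11a2* and *col2a1a* are filled.

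In most of these genes the pools of replicate 1 differed from the others. The 56 hpf pool of replicate 1 was the lowest at its stage for 6 of the 7 genes, all but *col27a1a*, where 40.4% of all genes tested had it lowest. The 48 hpf pool of replicate 1 was the highest at its stage for 5 of the 7, against 39.5% of all genes. Both held for 5 of the 7 (*col1a1a*, *col1a1b*, *col1a2*, *col5a1* and *col11a1a*), against 15.1% of all genes.

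The difference in log2(normalized count + 1) between the pools of replicate 1 was -0.09 for *col1a1a*, -0.77 for *col1a1b*, -0.38 for *col1a2*, -0.36 for *col5a1* and -0.14 for *col11a1a*. For replicate 2 the same genes differed by 1.12, 0.96, 1.02, 0.59 and 1.29, in that order, and for replicate 3 by 1.36, 1.24, 1.70, 0.52 and 1.95. The direction was thus the same in replicates 2 and 3 and the opposite in replicate 1. In *col27a1a* the differences were 1.06, 1.41 and 0.74 in replicates 1, 2 and 3.

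With the pools of replicate 1 left out, 6 of the 7 genes were called higher at 56 hpf, beside 6.78% of 20248 genes tested there. *col1a1a* then had a log2 fold change of 1.24 (limma adjusted p = 0.0268), *col1a1b* 1.097 (0.0294) and *col1a2* 1.36 (0.0235), while *col5a1* at 0.56 (0.128) was not called. Leaving out replicate 2 gave no call among the 7, where 0.127% of all genes were called higher and 26 genes in all, so that little could be called in that fit. Leaving out replicate 3 gave 2 of the 7, beside 1.85% of all genes. The pools of replicate 1 are labelled like the others and stay in every other value given.

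**Figure D3:**
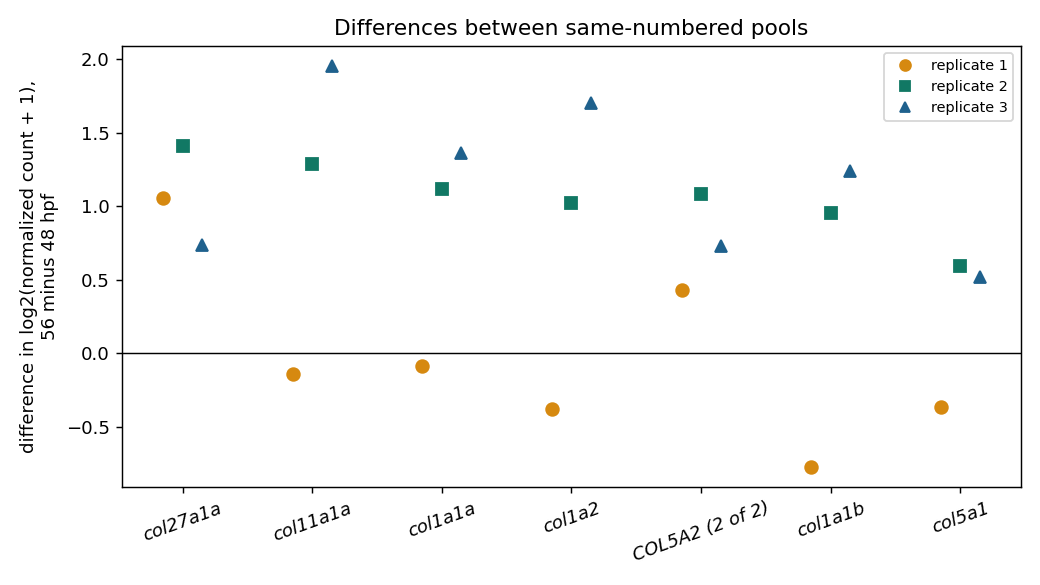
Difference in log2(normalized count + 1), 56 minus 48 hpf, between pools of the same replicate number, for the genes other than *col5a2b*; 1 symbol and colour per replicate. Replicates 2 and 3 lie above 0 for every gene shown, and replicate 1 lies below 0 for the 3 type I genes, *col5a1* and *col11a1a*.

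As a group, the 7 genes took 0.306%, 0.506% and 0.505% of the counted reads in the 56 hpf pools, against 0.392%, 0.288% and 0.230% in the 48 hpf pools. The 95% Wilson intervals ran from 0.303% to 0.308% for the 56 hpf pool of replicate 1 and from 0.389% to 0.395% for the 48 hpf pool of replicate 1, and cover counting error only. The 2 stages overlapped, through the 56 hpf pool of replicate 1. The 3 type I genes made up 72.0%, 76.2% and 76.0% of these reads at 56 hpf, against 73.6%, 73.9% and 70.3% at 48 hpf.

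The type I chains were also set against each other within each library, where the size factor cancels. *col1a1b* had 0.408, 0.610 and 0.621 reads per read of *col1a1a* in the 56 hpf pools, against 0.654, 0.683 and 0.676 in the 48 hpf pools. Every 56 hpf pool was below every 48 hpf pool, with replicate 1 at 56 hpf farthest from the rest. The mean log2 ratio differed by -0.32, with p = 0.1 by an exact two-sided permutation test, the smallest p that 3 against 3 pools can give, and 0.133 after adjustment over the 4 ratios compared. Without replicate 1 the difference was -0.14, and without replicate 2 or 3 it was -0.40 and -0.42.

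The alpha-2 chain was set against both alpha-1 copies. *col1a2* had 0.305, 0.296 and 0.347 reads per read of both alpha-1 copies together at 56 hpf, against 0.317, 0.303 and 0.265 at 48 hpf. These values overlapped, and the log2 difference was 0.10 (exact two-sided permutation p = 0.5, adjusted p = 0.5); without replicate 3 it was -0.04, so its direction depended on 1 replicate.

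The alpha-1 chain gene of type V was set against a single type I gene. *col5a1* had 0.407, 0.364 and 0.373 reads per read of *col1a1a* at 56 hpf, against 0.491, 0.523 and 0.670 at 48 hpf. No pools overlapped, replicate 1 included, and the log2 ratio differed by -0.55 (exact two-sided permutation p = 0.1, adjusted p = 0.133), or by -0.68 to -0.40 when replicates were left out in turn. The ratio of *col5a2b* to *COL5A2 (2 of 2)*, with 1 read added to each count, was higher at 56 hpf by 4.95 on the log2 scale. It also had no overlap (exact two-sided permutation p = 0.1, adjusted p = 0.133), and the difference was 3.80 with 3 reads added. *col5a2b* had 0, 0 and 6 reads at 48 hpf and passed the filter only through its 56 hpf reads. This ratio therefore repeats the stage difference of *col5a2b*, and its p gives no separate support.

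**Figure D4:**
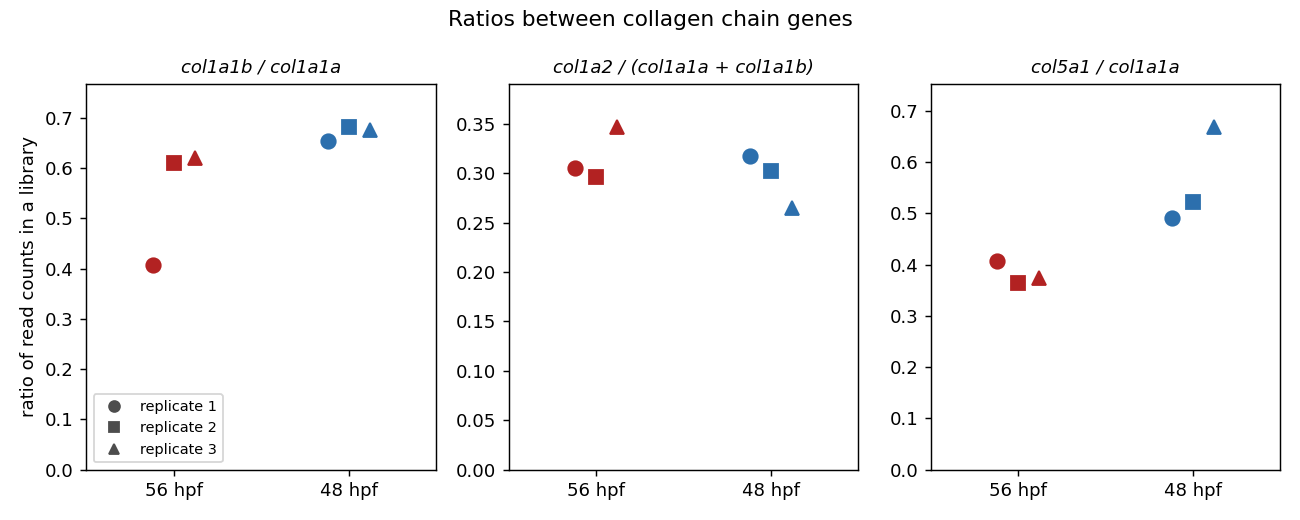
Ratios of read counts between collagen genes within each library (linear axes from 0), with 56 hpf on the left and 48 hpf on the right of each panel and a symbol per replicate number. *col1a1b* to *col1a1a* and *col5a1* to *col1a1a* are lower in every 56 hpf pool than in any 48 hpf pool, and *col1a2* to both alpha-1 copies overlaps between stages.

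The remaining fibril-forming collagens gave a comparison within the family. For this list and those below, the background was 0.87% of all genes called higher by limma. Before adjustment, 11.1% of all genes had a p under 0.05 in the higher direction. The likelihood ratio test called 5.79% of all genes higher. Of the 20805 genes tested, limma called 44 lower. In either direction edgeR's quasi-likelihood test called 156 genes, its likelihood ratio test 1741 and DESeq2 1503. The share of all genes that were lower before adjustment was not counted, so counts of such genes in a list have no background here. Of 8 such genes tested 2 were higher at 56 hpf, and none was lower; their median log2 fold change was 0.43. *col2a1a*, the main collagen of cartilage and the notochord sheath, had 2156, 2173 and 2227 normalized counts at 56 hpf, against 269, 128 and 392 at 48 hpf (log2 fold change 3.19, SE 0.31, limma adjusted p = 0.0122). *col11a2*, its type XI partner in cartilage, had 599, 651 and 752 at 56 hpf, against 103, 30.5 and 25.4 at 48 hpf (3.91, SE 0.45, limma adjusted p = 0.0195; 0.0906 without replicate 2).

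For both, the 56 hpf pool of replicate 1 lay above every 48 hpf pool, unlike in the type I genes. *col2a1b*, the copy of *col2a1a*, was not called, with a log2 fold change of 0.45 (limma adjusted p = 0.509), and *col11a1b*, the copy of *col11a1a*, had 0.02 (0.981). *col5a3b*, for the alpha-3 chain of type V, had 0.48 (0.608). Of 12 cartilage marker genes tested 3 were higher at 56 hpf (*acana*, *acanb* and *matn1*), while the whole list summed to 14298 to 23385 normalized counts at 56 hpf and 21940 to 31470 at 48 hpf. The median log2 fold change of the list was -0.24, with 4 of the 12 positive. Before adjustment, limma gave 3 higher and 3 lower with p under 0.05. After adjustment, edgeR's quasi-likelihood test called 1 higher, its likelihood ratio test 3 higher and 2 lower, and DESeq2 3 higher and 1 lower.

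Fibrils also carry collagens that bind to their surface. Of 7 fibril-associated collagen genes tested 1 was higher, *col9a3*, a type IX chain of cartilage, at 233, 188 and 208 normalized counts at 56 hpf, against 46.7, 27.7 and 45.7 at 48 hpf (log2 fold change 2.39, limma adjusted p = 0.0267; 0.252 without replicate 2). *col16a1* had 1769, 3449 and 3460 at 56 hpf, against 1912, 1399 and 985 at 48 hpf (1.00, adjusted p = 0.211). The type XII genes *col12a1a* and *col12a1b*, which coat type I fibrils, had log2 fold changes of 0.13 (0.852) and 0.35 (0.678).

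The enzymes and chaperones that modify and fold the chains showed no common shift. Of 19 tested none was called, at a median log2 fold change of 0.01; before adjustment, limma gave 4 with p under 0.05 that were higher and 5 that were lower. edgeR's quasi-likelihood test called 0, its likelihood ratio test 1 higher and 1 lower, and DESeq2 1 lower. The 3 with the highest counts were *p4hb*, *ppib* and *fkbp9*. *p4hb*, a subunit of prolyl 4-hydroxylase, had 0.45 (limma adjusted p = 0.303), *ppib*, a prolyl isomerase, 0.12 (0.853) and *fkbp9* -0.33 (0.479). *p4ha1b*, named after its values were seen, had 702, 609 and 798 normalized counts at 56 hpf, against 2396, 3768 and 1229 at 48 hpf, without overlap. It was not called by limma (-1.67, adjusted p = 0.0847) but was called lower by the likelihood ratio test (0.00208) and DESeq2 (0.000242).

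In the secretory route 1 of 12 genes was called. *sec23b*, which encodes an inner coat protein of the vesicles that carry cargo out of the endoplasmic reticulum, had 5210, 7252 and 8466 normalized counts at 56 hpf, against 2013, 1255 and 964 at 48 hpf. The stages lay well apart in every pool, with a log2 fold change of 2.34 (SE 0.33, limma adjusted p = 0.0351; 0.0538 with edgeR's quasi-likelihood test and 0.243 without replicate 2). *mia3*, which loads collagen into these vesicles, had -0.03 (0.944), and *sec24c*, a cargo adaptor of the same coat, had 0.27 (0.467). The median of the list was 0.36.

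Of 5 genes for removal of the propeptides, which lets chains assemble, none was called, at a median of 0.55; before adjustment, limma gave 1 higher and 1 lower with p under 0.05, and so did edgeR's likelihood ratio test and DESeq2 after adjustment, while the quasi-likelihood test called 0. *bmp1a*, the procollagen C-proteinase, had a log2 fold change of 0.60 (limma adjusted p = 0.318), *tll1* -0.44 (0.281) and *adamts3*, a procollagen N-proteinase in mammals, -1.08 (0.109).

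Of 6 crosslinking genes 1 was called. *lox*, a lysyl oxidase that crosslinks fibrils, had 42.6, 104 and 155 normalized counts at 56 hpf, against 6.67, 7.81 and 22.9 at 48 hpf, without overlap (log2 fold change 2.93, SE 0.45, limma adjusted p = 0.0429). At 48 hpf *lox* had 5, 11 and 18 reads, so it passed the filter through its 56 hpf reads. It was not tested when at least 10 reads were asked of every library. Its call was lost without replicate 2 (0.372), without the 48 hpf pools of replicate 1 (0.0573) or 2 (0.164), and without the 56 hpf pools of replicate 2 (0.170) or 3 (0.194). *loxl1* had 829, 812 and 573 at 56 hpf, against 377, 222 and 380 at 48 hpf (1.197, limma adjusted p = 0.0935), and was called in 4 of 20 alternatives. *loxl2b* (0.29, 0.673) and *loxl3b* (-0.30, 0.473) were not called. *loxl4*, named after its values were seen, had 285, 422 and 167 at 56 hpf, against 86.7, 61.8 and 59.7 at 48 hpf, without overlap. It was not called (1.98, limma adjusted p = 0.0571) but was in 9 of 20 alternatives. Of the 6 genes, 4 had a positive log2 fold change.

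Among 13 genes for proteins that bind fibrils 1 was called, *bgna*, a copy of the small proteoglycan biglycan. Its reads numbered 26, 37 and 47 in the 56 hpf pools, against 1, 0 and 0 in the 48 hpf pools, so that with the floor of 3 reads it was at least 6.60-fold, 17.1-fold and 10.3-fold higher in replicates 1, 2 and 3. The gene passed the filter only through its reads at 56 hpf and is not tested when at least 10 reads are asked of every library. The limma adjusted p was 0.0483, and it was 0.0697 with edgeR's quasi-likelihood test, 0.0628 with a pseudocount of 0.5, 0.367 without replicate 2, 0.103 without the 56 hpf pool of replicate 2 and 0.10002 without that of replicate 3. The list had a median of 0.72, and 7 of its genes had an unadjusted p under 0.05, all higher.

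The 3 fibril-binding genes with the highest counts differed among themselves. *fn1b*, a fibronectin on which fibrils assemble, had 85122, 135412 and 166889 normalized counts at 56 hpf, against 36381, 22128 and 16822 at 48 hpf, without overlap (log2 fold change 2.38, SE 0.49, limma adjusted p = 0.0809). It was called in 7 of 20 alternatives, among them edgeR's likelihood ratio test (adjusted p = 3.22e-05), DESeq2 (7.79e-09) and limma without the block (0.0210). Limma also called it without replicate 1 (0.00762). The other calls were in fits with no block, without the 48 hpf pool of replicate 1 (0.00630) or 3 (0.0309) or the 56 hpf pool of replicate 1 (0.0148). *sparc*, a collagen-binding glycoprotein, had 6394, 16035 and 16288 at 56 hpf, against 9434, 8787 and 6551 at 48 hpf (0.54, 0.483), again with replicate 1 lowest at 56 hpf and highest at 48 hpf. *fn1a* had a log2 fold change of -0.06 (0.910).

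Markers of the cell types that a dissected heart can hold were summed per library. The heart was well represented: the 11 myocardial markers found summed to 355725 to 409007 normalized counts at 56 hpf and 382671 to 948266 at 48 hpf, and the 11 endocardial ones to 28962 to 32512 at 56 hpf and 29699 to 52647 at 48 hpf. The low end of both 48 hpf ranges was replicate 1, whose myocardial sum lay within the 56 hpf range while the other 48 hpf pools held 803158 and 948266. Of the 11 myocardial markers 0 had a positive log2 fold change (median -0.69), and of the 11 endocardial ones 2 did (median -0.47). Over all genes 49.2% had a positive one. Limma called none of these markers. Epidermal markers were also abundant at both stages. The 17 of them summed to 493639, 819108 and 770762 in the 56 hpf pools, against 488197, 379245 and 201799 in the 48 hpf pools. Replicate 1 was lowest at 56 hpf and highest at 48 hpf, an order also seen in the type I genes and in the notochord sum. The sums of the other fibril-forming collagens and of the fibril-associated collagens had the same order. So did those of the secretory, crosslinking and fibril-binding genes, so the order was not particular to epidermal markers. A single keratin gene, *krt4*, made up 66.9% of the epidermal sum in the 56 hpf pool of replicate 1.

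Gene by gene the epidermal markers were mixed in replicate 1: 7 of the 17 were lower in its 56 hpf pool than in its 48 hpf pool, as 5 of the 7 collagen genes were, and 10 were higher at 56 hpf for each of the 3 replicate numbers. Their part in the collagen values was not tested. Of the 17 epidermal genes 1 was called, *krt15*, a keratin (log2 fold change 3.64, limma adjusted p = 0.0223, and 0.0848 without replicate 2). The median was 1.08. Before adjustment, limma gave 9 higher with p under 0.05, beside 11.1% of all genes, and 1 lower. DESeq2 called 10 higher and 1 lower, where it called 1503 genes in all. The lower one was *krt18* (named after its values were seen), below its 48 hpf range in every 56 hpf pool (-0.93, limma adjusted p = 0.109). *krt5*, a keratin of the basal layer, had 41605, 101009 and 109122 normalized counts at 56 hpf, against 23074, 20498 and 11217 at 48 hpf (2.14, adjusted p = 0.0945; called in 6 of 20 alternatives). No defining epidermal marker was at 0 in every pool.

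Markers of bone, whose matrix is mostly type I collagen, had few reads. The 8 found summed to 876 to 1291 normalized counts at 56 hpf and 157 to 653 at 48 hpf, and 2 of 7 tested were higher, *ifitm5* (log2 fold change 5.84) and *entpd5a* (2.92). Of the defining bone markers *bglap* had no read in any 48 hpf pool and 1 read at 56 hpf. Skeletal muscle markers summed to 20553 to 32945 at 56 hpf and 5753 to 12282 at 48 hpf. Of these 21 genes limma called 14 higher, beside 0.87% of all genes. Of 14 fibroblast and tendon genes limma called none, at a median log2 fold change of -0.27. Before adjustment, limma gave 2 higher and 6 lower with p under 0.05. After adjustment, DESeq2 called 2 higher and 1 lower. The list summed to 17134 to 26609 at 56 hpf and 21834 to 22467 at 48 hpf. *postnb*, a matrix protein of fibroblasts, had 7685, 17747 and 18037 at 56 hpf, against 12461, 11841 and 8045 at 48 hpf (0.35, limma adjusted p = 0.660). *prrx1b* was lower in every 56 hpf pool than in any 48 hpf pool (-0.81, limma adjusted p = 0.0995). *xirp2a* is on this list although it is a gene of striated muscle. It had 4425, 3001 and 2668 at 56 hpf, against 2205, 4049 and 7509 at 48 hpf (-0.31, limma adjusted p = 0.747). The sums of the list include it, so they do not describe fibroblasts and tendon alone.

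The smaller lists behaved unevenly. Of 5 epicardial markers limma called none (unadjusted p under 0.05 for 3, all higher; DESeq2 called 2), with sums of 2383 to 3037 at 56 hpf and 1024 to 1996 at 48 hpf. Of 8 smooth muscle genes *elnb*, an elastin, was higher (6.66), while the list summed to 2189 to 4420 at 56 hpf and 3075 to 4748 at 48 hpf. The median of the list was -0.02. *myh11a* was lower in every 56 hpf pool than in any 48 hpf pool (-1.12, limma adjusted p = 0.112), and was called lower by edgeR's likelihood ratio test (0.0183) and DESeq2 (0.0168). *acta2* had -0.76 (limma adjusted p = 0.367). Of 4 notochord markers tested *ntd5* was higher (2.06). The 6 found summed to 7063, 8265 and 8161 in the 56 hpf pools, against 5885, 5463 and 4920 in the 48 hpf pools. Replicate 1 was thus lowest at 56 hpf and highest at 48 hpf here too. A single gene made up 86.3% of the notochord sum in the 56 hpf pool of replicate 1. Among the named calls in marker lists, *ifitm5* and *elnb* held in 19 of 19 alternatives, *acanb* in 17 of 19, *matn1* and *entpd5a* in 14 of 19, *acana* in 14 of 20 and *ntd5* in 13 of 20. Genes given with 19 were dropped from the remaining one of the 20 alternatives by its filter on low counts. They had few reads in some pools, and their counts of calls do not cover that setting. *elnb* had 2, 7 and 11 reads at 48 hpf, against 182, 1608 and 1396 at 56 hpf. It passed the filter through its 56 hpf reads and was not tested when at least 10 reads were asked of every library. The part of any of these cell types in the collagen values was not tested.

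**Figure D5:**
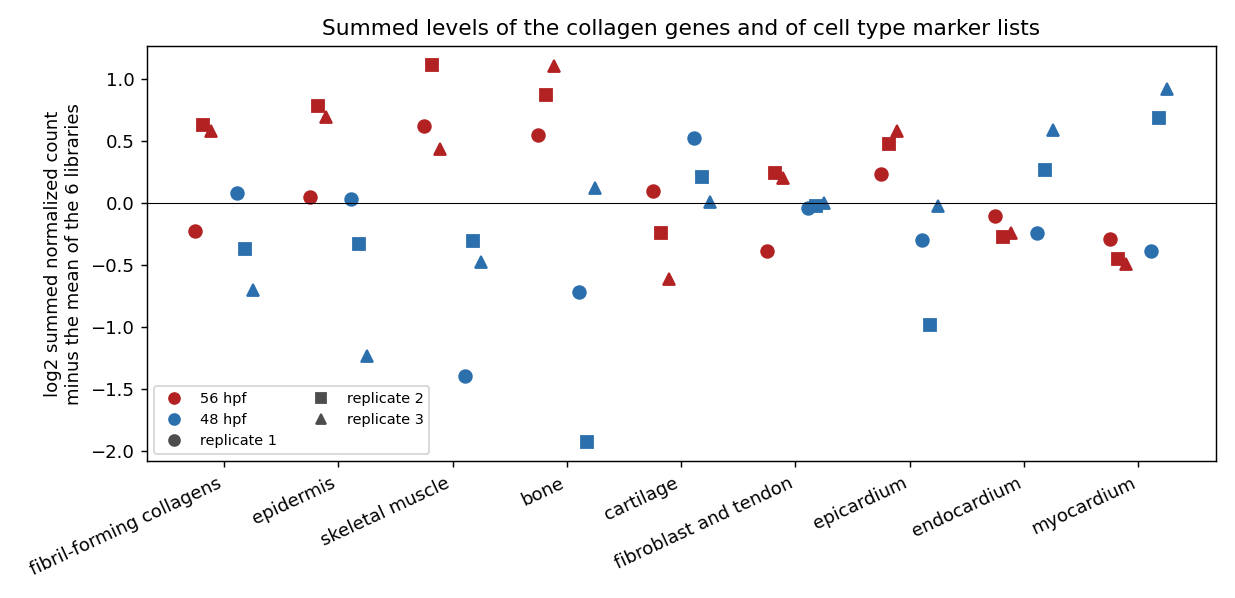
Log2 of the summed normalized count of each list minus its mean over the 6 libraries, in red for 56 hpf on the left and blue for 48 hpf on the right of each column, with a symbol per replicate number. The sums of the 7 collagen genes and of the epidermal markers both have replicate 1 lowest at 56 hpf and highest at 48 hpf. The notochord sum, which is not drawn, has the same order. So do the undrawn sums of the other fibril-forming and fibril-associated collagens and of the secretory, crosslinking and fibril-binding genes. The epidermal sums do not overlap between stages while the collagen sums do. Skeletal muscle and bone markers lie higher at 56 hpf.

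The genes most like the group across the 6 libraries were found by Pearson's r with the mean centred log2 profile of the 7 genes, among 12513 genes with a mean normalized count of at least 100. The closest were *agr2* (r = 0.997), *mid1ip1b* (0.997), *hcls1* (0.996), *zgc:174637* (0.994) and *zgc:198419* (0.994). This profile was led by *col5a2b*, whose change outweighed the rest. With *col5a2b* left out, a choice made after seeing the data, the closest were *tob1a* (0.996), *SGMS2 (1 of 2)* (0.995), *col16a1* (0.995), *hsd20b2* (0.994) and *gorasp2* (0.993). These values describe 6 libraries that share stage and library composition, and they come from a search over many genes.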

How the data were processed

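Pools of hearts were sequenced, and per the paper's methods the authors aligned reads to the Zv9 assembly, kept those with a unique position and summed them over Ensembl gene models. The submitters' processing notes name CASAVA 1.8.2, Bowtie2 2.1.0, HTSeq 0.5.4p3 and DESeq 1.10.1. The paper's methods instead name TopHat with bowtie and an earlier HTSeq version. That only reads with a unique position were counted is therefore taken from the paper. Library preparation and sequencer differ between the labels (amplified RNA) and the methods (poly-A selection), and strand use in counting is not given in the sources used here, so overlapping genes are uncertain. The deposited signal is a normalized read count: the authors divided each gene's reads by a factor for library size. In every library 100% of values were whole multiples of 1 read (tolerance 0.1 read), and the whole reads were recovered.

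Reads were divided by size factors drawn from these 6 libraries (median of ratios), genes were kept by filterByExpr (minimum count 10, minimum total 15), and log2(normalized count + 1) was fitted in limma 3.58.1 (R 4.3.3) with a trend and the replicate number as a block, at a threshold of 0.05. The study's methods adjust for differences between experiments; that the replicate number marks the experiment is an inference. A fold change on this scale understates the change of low genes. edgeR 4.0.16 and DESeq2 1.42.0 were run on the recovered reads as alternatives, beside TMM factors, the deposited scale, other pseudocounts and filters, no block, and libraries left out. The block was kept where a whole replicate was left out and dropped where a single library was. Ratios were compared by exact permutation tests.

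The 7 genes and all lists were chosen with earlier results of these data known, so no p over a list is given. Named are these genes, each list's called genes and its 3 with the highest counts (for the marker lists, a selection of these), and the 5 genes most like the group. A few others are marked as named after their values were seen. Coordinates and sequences are not given here.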

Additional observations from a re-analysis of the deposited data

How the results depend on the processing

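All 7 log2 fold changes kept their sign in every alternative run for them, so the processing bore on the calls and not on the direction. The number of genes called in all, 225, was 1741 under the likelihood ratio test of edgeR, 1503 under DESeq2, 346 with no filter on low counts, 137 with at least 10 reads in every library, and between 26 and 2035 when replicates or single libraries were left out. Of the 7 collagen genes 1 was called, against 2 under the likelihood ratio test, 2 under DESeq2, 0 with at least 10 reads in every library (which leaves *col5a2b* untested), and between 0 and 6 with replicates or libraries left out. Without the replicate block 560 genes and 2 of the 7 were called, and the fits that left out a single library also had no block. Same-numbered pools deviated from their stage means with correlations of 0.03, 0.19 and -0.05 for replicates 1, 2 and 3, so the data do not show that the numbers pair the pools. With signs permuted over same-numbered pairs, the replicate block leaves the ratio differences unchanged by construction, and the exact p was 0.25 in place of 0.1 for 3 ratios (0.25 being the smallest that 3 pairs allow) and 1.0 in place of 0.5 for *col1a2*. The log2 difference in the ratio of *col1a2* to both alpha-1 copies, 0.10, reversed to -0.044 without replicate 3 (range over replicates left out -0.044 to 0.18). The mean share of reads taken by the 7 genes, 0.439% at 56 hpf and 0.303% at 48 hpf, was 0.639% and 0.410% with genes above 1% of any library left out of the denominator. With 3 pools against 3, differences of the size seen in type I genes lay within the spread between pools, and *col5a2b* at 48 hpf lay at the floor of detection.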

Other observations

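Genes that bind or degrade fibrils at the cell surface were described as well. Of 12 collagen receptor genes none was called, at a median log2 fold change of 0.10 (limma, unadjusted p under 0.05 for 3 that were higher and 1 that was lower; 0 called by edgeR's quasi-likelihood test and 3, all higher, by its likelihood ratio test and by DESeq2). *itgb1b*, a beta-1 integrin subunit, had 1905, 2465 and 2464 normalized counts at 56 hpf, against 2585, 3121 and 3761 at 48 hpf, without overlap (-0.46, limma adjusted p = 0.249). The discoidin domain receptor genes *ddr1* and *ddr2l* had log2 fold changes of -0.10 (0.895) and 0.11 (0.786). Of the other receptor genes of this kind, both named after their values were seen, *ddr2a* had 0.12 (0.850). *ddr2b* had 54, 33 and 56 reads at 56 hpf, against 5, 5 and 2 at 48 hpf, without overlap. It was not called (3.16, limma adjusted p = 0.0625) but was in 9 of 19 alternatives, and its 48 hpf reads lay near the floor. *itga10*, named after its values were seen, had 74.1, 50.2 and 54.9 at 56 hpf, against 0, 0 and 11.4 at 48 hpf, and was not called (limma adjusted p = 0.0701; called in 7 of 19 alternatives).

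Of 6 collagenase genes none was called, at a median of 0.37 (limma, unadjusted p under 0.05 for 2 that were higher and 1 that was lower; 0 called by edgeR's quasi-likelihood test and 1, lower, by its likelihood ratio test and by DESeq2). *mmp2*, a gelatinase, had 3036, 4464 and 4271 normalized counts at 56 hpf, against 2504, 2114 and 2195 at 48 hpf, without overlap (log2 fold change 0.77, adjusted p = 0.145). *mmp14b*, a membrane-bound collagenase, had 0.52 (0.277) and *ctsk*, a collagen-degrading cathepsin, 0.54 (0.217).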
